A study of Mus musculus with 2 samples.

Results

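Mrc1-low macrophages were drawn from snRNA-seq (RNA sequencing of single nuclei) of the gonadal VAT (visceral adipose tissue) of 2 female C57BL/6J mice aged 2 months, with 1 library per mouse. The tissue, sex and strain are as in the study's methods, and the animals carried no named allele and received no named agent. The sample labels give the cell type as adipocytes and name a 10x Genomics platform, while the protocol names a Singleron kit. Nuclei with over 500 genes, over 1000 UMIs (unique molecular identifiers, each standing for 1 captured RNA molecule) and under 15% mitochondrial UMIs numbered 2833 in replicate 1 and 12225 in replicate 2.

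The members were chosen by measured UMIs of named genes. A nucleus was a macrophage when the summed UMIs of Cd68, Cybb, Ms4a7, Mpeg1, Ctss, Msr1, Fcgr1 and Adgre1, its macrophage sum, reached 3. It also had to hold under 10 UMIs of 8 adipocyte genes and at most 1 of 4 mesothelial, endothelial and fibroblast genes. A macrophage was Mrc1-low when it held at most 1 UMI of the resident genes Mrc1, F13a1, Cd163 and Lyve1 and at most 1 of Flt3, Zbtb46, Cd209a, Xcr1, Clec9a and Ccr2. This gave 79 nuclei of 665 macrophages and of 15058 nuclei in all, 35 in replicate 1 and 44 in replicate 2. They were set beside 3 other classes. Mrc1-rich macrophages held 2 or more resident UMIs and at most 1 UMI of the Flt3 group (77 and 331 nuclei), dendritic or monocyte-like macrophages held 2 or more UMIs of the Flt3 group (37 and 141 nuclei), and all other nuclei were outside the gate (2684 and 11709 nuclei). The dendritic or monocyte-like class was not limited in resident UMIs and held medians of 6 and 12 of them. The study gave no annotation for single nuclei among the files used here, so these classes are gates on named genes and not the study's clusters.

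Macrophages are phagocytes that depend on the receptor Csf1r, and fat holds several kinds of them. Those that express the mannose receptor Mrc1, the haemoglobin scavenger receptor Cd163 and the hyaluronan receptor Lyve1 lie along vessels and in the stroma of healthy fat. The peritoneal cavity around gonadal fat holds its own large macrophages, known for the transcription factor Gata6 and for Prg4, Alox15 and Saa3. Circulating monocytes that patrol vessels are known for Nr4a1, Spn, Itgal, Ace and Fcgr4.

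Saa3 and Selp stand here for the peritoneal and Ace and Plac8 for the monocyte genes that were higher in Mrc1-low macrophages. The 250 bases before their first listed RefSeq start are printed here (GRCm38.p6, 5′ to 3′ on the strand of the gene) as the regulatory sequence next to these genes. Capitals mark GAGGAA or its reverse complement TTCCTC, the core of sites of the myeloid factor PU.1, and GATAA or TTATC, the core of sites of GATA factors.
Saa3 (chr7:46715677-46715926, minus strand): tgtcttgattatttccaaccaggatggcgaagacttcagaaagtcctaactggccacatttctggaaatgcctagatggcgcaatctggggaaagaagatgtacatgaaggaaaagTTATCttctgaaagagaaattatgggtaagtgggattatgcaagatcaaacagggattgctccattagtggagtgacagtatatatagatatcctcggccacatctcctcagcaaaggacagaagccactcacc
Selp (chr1:164115014-164115263, plus strand): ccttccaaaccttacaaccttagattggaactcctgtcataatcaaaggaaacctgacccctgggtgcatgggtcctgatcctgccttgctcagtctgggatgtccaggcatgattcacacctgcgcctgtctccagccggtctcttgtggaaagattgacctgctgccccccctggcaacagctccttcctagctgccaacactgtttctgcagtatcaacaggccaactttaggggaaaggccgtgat
Ace (chr11:105967698-105967947, plus strand): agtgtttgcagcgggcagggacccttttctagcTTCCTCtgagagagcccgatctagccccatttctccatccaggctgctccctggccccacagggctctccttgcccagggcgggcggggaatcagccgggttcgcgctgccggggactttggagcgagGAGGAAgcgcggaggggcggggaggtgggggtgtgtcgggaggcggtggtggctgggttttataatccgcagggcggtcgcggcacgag
Plac8 (chr5:100572206-100572455, minus strand): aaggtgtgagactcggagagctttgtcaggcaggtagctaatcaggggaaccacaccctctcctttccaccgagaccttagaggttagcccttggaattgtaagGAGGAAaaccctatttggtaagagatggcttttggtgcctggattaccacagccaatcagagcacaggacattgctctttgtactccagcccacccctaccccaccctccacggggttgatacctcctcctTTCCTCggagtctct
No window holds both motifs, so they do not overlap. The PU.1 letters stood 2 times in the Ace and 2 times in the Plac8 window, and the GATA letters stood 1 time in the Saa3 window. Among 27025 windows of this length, 23.1% held the PU.1 letters and 23.0% the GATA letters on either strand. Of the genes called higher than in Mrc1-rich macrophages, 7 of the peritoneal list had a window, of which 1 held the PU.1 and 2 the GATA letters. Among 5 of the monocyte list, 3 held the PU.1 and 0 the GATA letters. Letters in a window describe the sequence and do not show that a factor binds there. In GRCm39, the build of the files, Saa3 lies at chr7:46361422-46365576, Selp at chr1:163942833-163977595, Ace at chr11:105858469-105880790 and Plac8 at chr5:100701591-100720111. All of them are protein-coding genes.

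Mrc1-low macrophages made up 23.5% of the macrophages of replicate 1 (95% exact Clopper-Pearson interval 16.9 to 31.1) and 8.53% of those of replicate 2 (6.26 to 11.3). The mean was 16.0% ± 10.6 (SD, n = 2). The shares depended on the gate, at 30.7% and 15.5% after thinning each nucleus to 1000 UMIs and 13.4% and 6.59% when members held 0 resident and 0 Flt3 group UMIs. Of all nuclei they were 1.24% (0.862 to 1.71) and 0.360% (0.262 to 0.483). The intervals do not overlap and cover counting error only. Replicate 1 thus held fewer nuclei but the larger share of this class. The libraries also differed in RNA quality. Median mitochondrial UMIs were 9.53% and 2.63% in Mrc1-low, 8.72% and 1.24% in Mrc1-rich macrophages, and 6.05% and 0.593% in nuclei outside the gate. The part of the mitochondrial level in the share was not tested.

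The members held 64855 UMIs in replicate 1 and 85004 in replicate 2, with medians of 1531 and 1720.5 per nucleus, against 1617 and 2005 in Mrc1-rich macrophages and 2268 and 2789 outside the gate. No barcode was shared between members of the 2 libraries, while 27 barcodes were shared among all nuclei kept. The macrophage sum ranged from 3 to 61 in replicate 1 and from 3 to 39 in replicate 2. It was exactly 3 in 8 and 14 members. Resident UMIs were 0 in 23 and 35 members and 1 in 12 and 9.

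The genes of the rule chose the members, so their levels are a description without a test. Levels are CPM, the UMIs of a class in a library scaled to a common total, with replicate 1 first. Cybb, a subunit of the phagocyte NADPH oxidase, stood at 2513 and 1318 CPM in Mrc1-low and at 1413 and 485 in Mrc1-rich macrophages. Adgre1, which encodes F4/80, stood at 817 and 1141 against 1018 and 931. Mpeg1, a pore-forming protein, stood at 555 and 282 against 191 and 113, and the lysosomal protease Ctss at 1141 and 788 against 905 and 647. Outside the gate, Cybb stood at 25.1 and 9.37 CPM and Adgre1 at 18.6 and 15.7. Within the rule the members were uneven, since Ms4a7 had no UMI in any of the 79 nuclei against 106 and 210 CPM in Mrc1-rich macrophages. Cd163 and Lyve1 also had no UMI, while Mrc1 stood at 108 and 23.5 CPM and F13a1 at 77.1 and 82.3. Those levels of Mrc1 came from 9 nuclei, within the limit of 1 UMI.

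Macrophage genes outside the rule were compared by edgeR's quasi-likelihood test on UMIs summed per class and library, with the library as a block. Against nuclei outside the gate, 14.6% of the 7481 genes tested were called higher in Mrc1-low macrophages (1093 genes, adjusted p under 0.05) and 14.9% lower (1115 genes). Of 19 tested genes of the macrophage identity list, 17 were called higher, with a median log2 fold of 4.49 beside a median of -0.15 over all genes tested. After thinning each nucleus to 1000 UMIs, the lysozyme gene Lyz2 had a UMI in 71.4% and 59.1% of members against 5.18% and 2.78% of nuclei outside the gate. The common leukocyte antigen Ptprc was seen in 37.1% and 34.1% against 2.87% and 3.15%, and Csf1r in 42.9% and 25.0% against 3.20% and 2.85%. Without thinning, the members' shares were 74.3% and 65.9% for Lyz2, 48.6% and 43.2% for Ptprc, and 54.3% and 36.4% for Csf1r. The members were gated on macrophage genes and set against nuclei that failed that gate, so genes that go along with those had to be higher. Macrophage genes that the rule had not used were present in the members as a class, which does not back the label for each member. They were unevenly spread over the members, and 706 of the 787 Lyz2 UMIs lay in 39 nuclei that are described below. The integrin gene Itgam had no UMI in any class of either library. The reason was not tested, so this 0 is not read as a lack of expression.

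The members were not alike. The 16 genes of the large peritoneal macrophage list and the 16 genes of the monocyte list were summed in each nucleus after thinning to 1000 UMIs. A cut at 3 UMIs, chosen after the values had been seen, divides a range and does not define a type. By it, 39 members held 3 or more peritoneal list UMIs and fewer than 3 monocyte list UMIs, 20 in replicate 1 and 19 in replicate 2. Another 17 members, 7 and 10, held 3 or more monocyte list UMIs and fewer than 3 of the peritoneal list. In replicate 2, 1 nucleus reached the cut for both lists, and 22 members, 8 and 14, reached it for neither. Few nuclei lay at the cut of the peritoneal list, with 4 members at 2 UMIs and 1 at 3. For the monocyte list 8 members lay at 2 UMIs and 3 at 3.

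**Figure D1:**
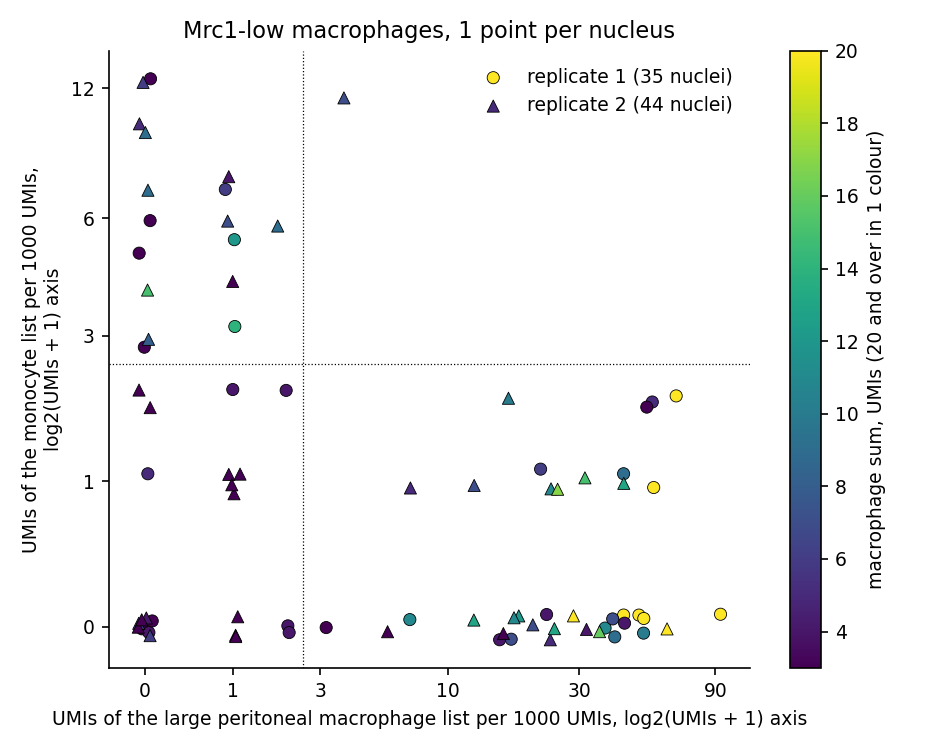
Each point is 1 of the 79 Mrc1-low nuclei, with UMIs of the large peritoneal macrophage list (x) and of the monocyte list (y) per 1000 UMIs on log2(UMIs + 1) axes, slightly jittered; circles are replicate 1, triangles replicate 2, colour is the macrophage sum, and dotted lines mark the cut of 3 UMIs. A single nucleus lies in the upper right field, 39 lie to the right, 17 at the top and 22 in the lower left field.

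The 39 nuclei rich in the peritoneal list had a median of 28 list UMIs per 1000 and of 0 monocyte list UMIs, with 1733 UMIs per nucleus. Their median mitochondrial share was 10.7% and 6.08%, against 7.91% and 1.05% in the monocyte range, and its part in the list levels was not tested. The ranges were cut on the sums of these lists, so the presence of a range's own list genes and the scarcity of the other list's are largely set by the cut, and the counts are a description. Fn1, which encodes fibronectin, was found in all 39, Prg4, a secreted lubricating proteoglycan, in 35, and Ltbp1, which binds latent TGF-beta, and the lipoxygenase gene Alox15 each in 32. The acute-phase gene Saa3 was found in 30 of them, Lyz2 in 37, Adgre1 in 32 and the complement gene C1qa in 25. Timd4, a phosphatidylserine receptor of resident macrophages, was found in 20. Ptprc was found in 15, and Cx3cr1, Spn and Plac8 in none. The macrophage sum had a median of 10, and 8 of the nuclei had a sum of 3 or 4. Gata6, a gene of the list, was found in only 9 of the 39 nuclei (137 CPM). It was found in 3 of the 22 nuclei that reached neither cut (122 CPM) and in 1 of the 17 (28.4 CPM).

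The 17 nuclei rich in the monocyte list had a median of 6 list UMIs per 1000 and of 0 peritoneal list UMIs, with 1992 UMIs per nucleus. Ace, angiotensin-converting enzyme, was found in 14 of them, the integrin gene Itgal and the nuclear receptor gene Nr4a1 each in 11, the fractalkine receptor gene Cx3cr1 in 10, and the sialophorin gene Spn and Plac8 each in 9. Ptprc was found in 15 with 81 UMIs, against 22 UMIs in the 39 nuclei of the peritoneal range. Fcgr4 was found in 5 of the 17 nuclei and in 4 of the 39. No UMI of Prg4, Alox15, Icam2 or C1qa was found in these 17 nuclei, and Adgre1 was found in 4. The macrophage sum had a median of 6.

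The 22 nuclei that reached neither cut had a median macrophage sum of 3, and 19 of them had a sum of 3 or 4. Lyz2 was found in 5 of them, Ptprc in 5, Csf1r in 4 and C1qa in 1, and Adgre1 in 10. The fibroblast proteoglycan gene Dcn was found in 10 of these 22, in 17 of the 39 and in 4 of the 17 nuclei, and the adipokine gene Adipoq in 7, 12 and 4. Class II antigen presentation genes (H2-Aa, H2-Ab1, H2-Eb1 and Cd74) reached 3 UMIs per 1000 in 7 of these 22 nuclei, in 3 of the peritoneal and in 2 of the monocyte range. This set thus held few UMIs of macrophage genes outside the rule.

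Several of these genes were found in the same nuclei. Of the 36 members with a UMI of Prg4, 31 had Alox15, 30 had Saa3, 27 had the adhesion gene Selp and 20 had Timd4. Among the 43 members without Prg4 those 4 genes were found in 1 nucleus each. Fn1 was found in 35 of the 36 and 13 of the 43, and Ltbp1 in 32 and 7. Timd4 belongs to the tissue-resident perivascular list and the others to the peritoneal list. Of the 18 members with Ace, 11 had Itgal, 10 Nr4a1 and 9 Spn, and of the 61 without Ace, 4, 5 and 1 had them. Prg4 was found in 2 of the 18. These are counts within nuclei that share 2 libraries, and no test was made on them.

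Compared with the other classes, 57.1% and 45.5% of Mrc1-low nuclei reached 3 peritoneal list UMIs per 1000. The share was 11.7% and 1.81% in Mrc1-rich macrophages, 32.4% and 14.2% in dendritic or monocyte-like macrophages and 6.30% and 4.31% outside the gate. At 10 or more UMIs the counts were 18 of 35 and 17 of 44 members, 7 of 77 and 2 of 331 Mrc1-rich nuclei, 3 of 37 and 3 of 141 dendritic or monocyte-like nuclei, and 6 of 2684 and 12 of 11709 nuclei outside. The monocyte list reached 3 UMIs in 7 of 35 and 11 of 44 members, against 0 of 77 and 4 of 331 Mrc1-rich nuclei, 0 of 37 and 7 of 141 dendritic or monocyte-like nuclei and 2.31% and 1.14% outside the gate. Peritoneal list sums of 10 or more were thus far more frequent among Mrc1-low nuclei than in the other classes, while 1 of 35 and 4 of 44 members held 10 or more monocyte list UMIs. Nuclei with such peritoneal list sums made up more of the Mrc1-rich class in replicate 1 than in replicate 2. Without thinning, 60.0% and 47.7% of members reached 3 peritoneal list UMIs, as did 14.3% and 3.93% of Mrc1-rich nuclei. The shares were 40.5% and 30.5% in the dendritic or monocyte-like class and 23.1% and 23.1% outside. The monocyte list then reached 3 UMIs in 10 of 35 and 17 of 44 members and 4 of 77 and 27 of 331 Mrc1-rich nuclei. It did so in 7 of 37 and 20 of 141 dendritic or monocyte-like nuclei, and 11.4% and 6.93% outside.

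**Figure D2:**
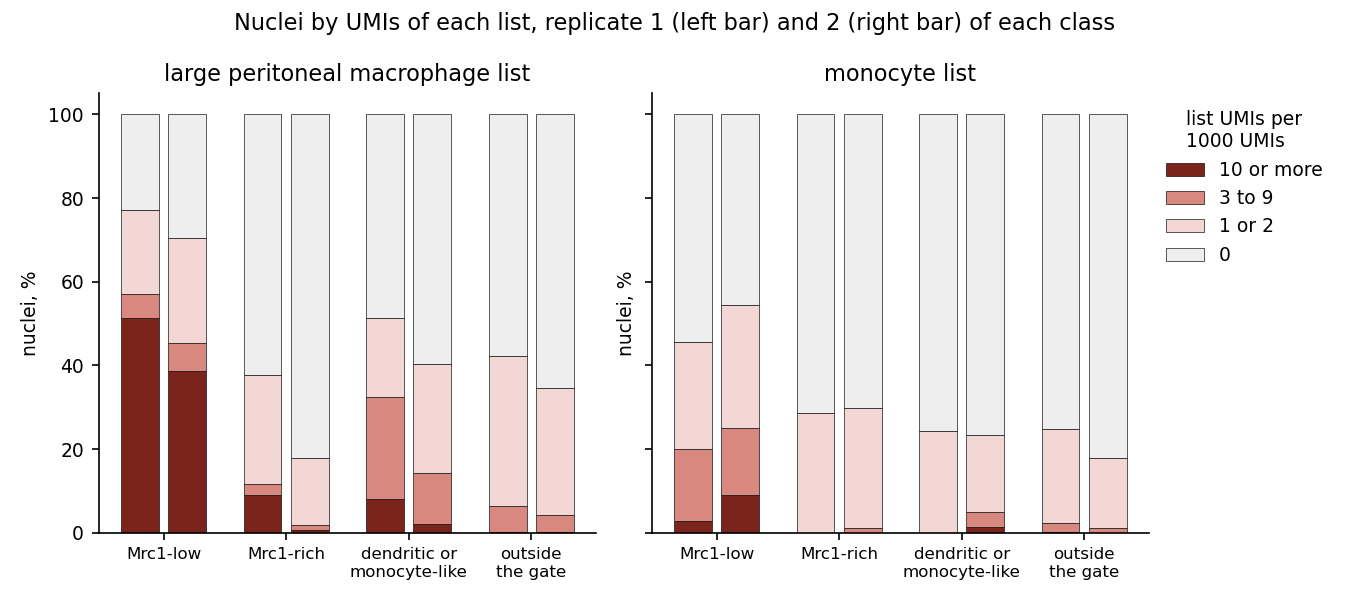
Bars give the percent of nuclei of each class and library by UMIs of the large peritoneal macrophage list (left panel) and the monocyte list (right panel) per 1000 UMIs, with replicate 1 left and replicate 2 right in each pair. The darkest part, 10 or more UMIs, holds 18 of 35 and 17 of 44 Mrc1-low nuclei in the left panel and a small part of every other bar.

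Mrc1-low and Mrc1-rich macrophages were compared first. The classes were split by 4 genes measured in the same nuclei, so genes that go along with those 4 had to differ, and each p describes the separation of the gated classes in 2 libraries. Of 7481 genes tested outside the rule, 192 were called higher in Mrc1-low macrophages (2.57%) and 273 lower (3.65%). Of the 192, 187 were higher in both libraries, and all 273 were lower in both.

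Large peritoneal macrophage genes were mostly higher. Of 16 tested, 13 were called higher, with a median log2 fold of 3.10 beside -0.05 over all genes tested, and 4 were called without the library as a block. All gene lists were chosen with earlier results of these data known, so counts of calls in them, here and elsewhere, are a description. Prg4 (chr1:150325163-150342009 in GRCm39) stood at 6075 and 2188 CPM in Mrc1-low and at 1336 and 22.1 in Mrc1-rich macrophages. It was 16.3-fold higher (log2 fold 4.03 ± 0.48 SE, adjusted p = 2.1e-09). Fn1 (chr1:71624673-71692419) stood at 10176 and 4188 against 2466 and 158 CPM (log2 fold 3.08 ± 0.41, adjusted p = 3.4e-08). Alox15 (chr11:70234970-70242858) stood at 1912 and 1023 against 438 and 16.6 CPM (3.70 ± 0.41, 2.5e-10). Saa3 stood at 3007 and 1435 against 777 and 36.0 CPM (3.70 ± 0.48, 2.2e-08). In each of these genes both Mrc1-low values lay above both Mrc1-rich values, but the gap was far wider in replicate 2. The log2 fold of Prg4 was 2.19 in replicate 1 alone and 6.63 in replicate 2 alone, that of Fn1 2.04 and 4.73, that of Alox15 2.13 and 5.95, and that of Saa3 1.95 and 5.32.

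Among the other peritoneal list genes, the adhesion genes Icam2 and Selp were 17.1-fold and 9.42-fold higher, the growth factor gene Tgfb2 8.72-fold and Ltbp1 7.41-fold. In replicate 1 and replicate 2 alone the log2 folds were 3.63 and 4.77 for Icam2, 2.95 and 3.65 for Selp, 2.56 and 3.70 for Tgfb2, and 2.03 and 3.91 for Ltbp1. Thbs1, which encodes thrombospondin, stood at 355 and 929 CPM against 219 and 8.30. Its log2 fold was 0.69 in replicate 1 and 6.81 in replicate 2, and its call (3.58 ± 0.56, adjusted p = 2.2e-06) therefore rests on replicate 2. The protease inhibitor gene Slpi stood at 1341 and 424 against 431 and 13.8 CPM, although 59 of its 87 UMIs in replicate 1 came from 1 nucleus. Gata6 stood at 92.5 and 118 CPM against 21.2 and 13.8 (adjusted p = 0.00263). Its level outside the gate was 111 and 103 CPM, so Gata6 was at a like level in the remaining nuclei of the tissue. The coagulation factor gene F10 (adjusted p = 0.0724), the chemokine gene Cxcl13 (0.0985) and Naip1 (0.716) did not pass.

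Of 16 monocyte genes 9 passed the filter on low counts, which a gene could pass through the Mrc1-low class alone, and 6 of the 9 were called higher. Their median log2 fold was 3.75, against 1.67 over all 16 genes without the filter, so the median is no measure of the whole list. Chil3 (adjusted p = 0.268), Hp (0.339) and Ms4a4c (0.331) did not pass. Ace stood at 231 and 306 CPM in Mrc1-low against 14.1 and 17.98 in Mrc1-rich macrophages (log2 fold 3.91 ± 0.63, adjusted p = 5.1e-06). Itgal stood at 200 and 294 against 14.1 and 17.98 (3.84 ± 0.65, 1.1e-05), Nr4a1 at 278 and 259 against 7.07 and 22.1 (3.75 ± 0.65, 1.7e-05), and Plac8 at 154 and 235 against 7.07 and 9.68 (4.44 ± 0.78, 2.3e-05). On the log2 scale the libraries gave folds of 4.03 and 4.09 for Ace, 3.83 and 4.03 for Itgal, and 4.45 and 4.60 for Plac8. For Nr4a1 they gave 5.30 and 3.55, and 13 of its 18 UMIs in replicate 1 came from 1 nucleus. Spn (14.8-fold) and the transcription factor gene Pou2f2 (2.46-fold) were the other 2 called. The log2 fold of Spn was 5.45 in replicate 1, where 10 of its 20 UMIs came from 1 nucleus, and 3.09 in replicate 2. That of Pou2f2 was 0.91 and 1.58, and DESeq2 did not call it (adjusted p = 0.068). The inflammatory monocyte gene Ly6c2 had a UMI in 1 member, and S100a8, S100a9 and Vcan had none. Ace and Itgal each rested on few nuclei, 18 and 15 of the 79.

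The 12 most increased genes by the rule for naming, among called genes with at least 20 UMIs in Mrc1-low macrophages and 5 in each library, held Prg4, Icam2, Ace, Itgal, Spn and Plac8 from those lists. Fcgr4, an activating Fc receptor, stood at 216 and 118 CPM against 21.2 and 4.15. Sirpb1c, a signal regulatory protein gene, stood at 154 and 129 CPM against 7.07 and 2.77. These are 21 UMIs in Mrc1-low and 3 in Mrc1-rich macrophages, a ratio of 40.4 (95% counting interval 12.1 to 211). The apolipoprotein gene Apoc1 stood at 123 and 212 against 0 and 8.30 CPM. 5430437J10Rik, Gm5150 and the lectin-like receptor gene Klra2 completed the list with folds of 23.2, 17.3 and 16.7. For 5430437J10Rik, 14 of 23 UMIs in replicate 1 and 14 of 47 in replicate 2 came from 1 nucleus each. Klra2 stood at 216 and 329 against 35.3 and 11.1 CPM, with the wider gap in replicate 2. Gm5150 stood at 123 and 318 against 0 and 19.4 CPM.

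Resident genes outside the rule were lower. Of 20 tested genes of the tissue-resident perivascular list, 17 were called lower, with a median log2 fold of -3.24. Selenop, the selenium carrier, stood at 247 and 188 CPM in Mrc1-low against 3950 and 3712 in Mrc1-rich macrophages (log2 fold -4.22 ± 0.39, adjusted p = 6e-13). The lectin gene Clec10a stood at 92.5 and 70.6 against 1986 and 1737 (-4.59 ± 0.42, 6e-13), and the endocytic adaptor gene Dab2 at 46.3 and 82.3 against 1011 and 1263 (-4.20 ± 0.42, 9.6e-12). The folate receptor gene Folr2 had 1 UMI in the members against 433 in Mrc1-rich macrophages, a ratio of 75.1 (95% counting interval 13.4 to 2971). Cd209f had 2 against 684 UMIs (ratio 59.3, 16.3 to 490). The scavenger receptor gene Stab1 had 3 against 675 (ratio 39.0, 13.3 to 190). All 3 lay in replicate 1, where Stab1 stood at 46.3 against 530 CPM, a narrower gap than the pooled ratio. In replicate 2 it stood at 0 against 830 CPM. Timd4 stood apart from its list, at 756 and 353 against 417 and 253 CPM (adjusted p = 0.286), and Ltc4s and Vsig4 also did not pass.

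The 12 genes named by the rule on the lower side had no UMI in any member, so that their folds are lower bounds. The carbonyl reductase gene Cbr2 was at least 17.4-fold lower, against a limit of 3 UMIs over the class, with 297 and 360 CPM in Mrc1-rich macrophages. The peptidase gene Enpep was at least 9.24-fold lower, the phospholipase gene Pla2g2d at least 8.96-fold, Siglech at least 6.47-fold and the ion channel gene Trpv4 at least 5.14-fold. Atg16l1, Scamp5, Spast, Tslp, Gpr34, Sass6 and ENSMUSG00000120076 were the remaining 7 named, with bounds between 2.72 and 5.32. In all, 19 of the 273 genes called lower had no UMI in the members.

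**Figure D3:**
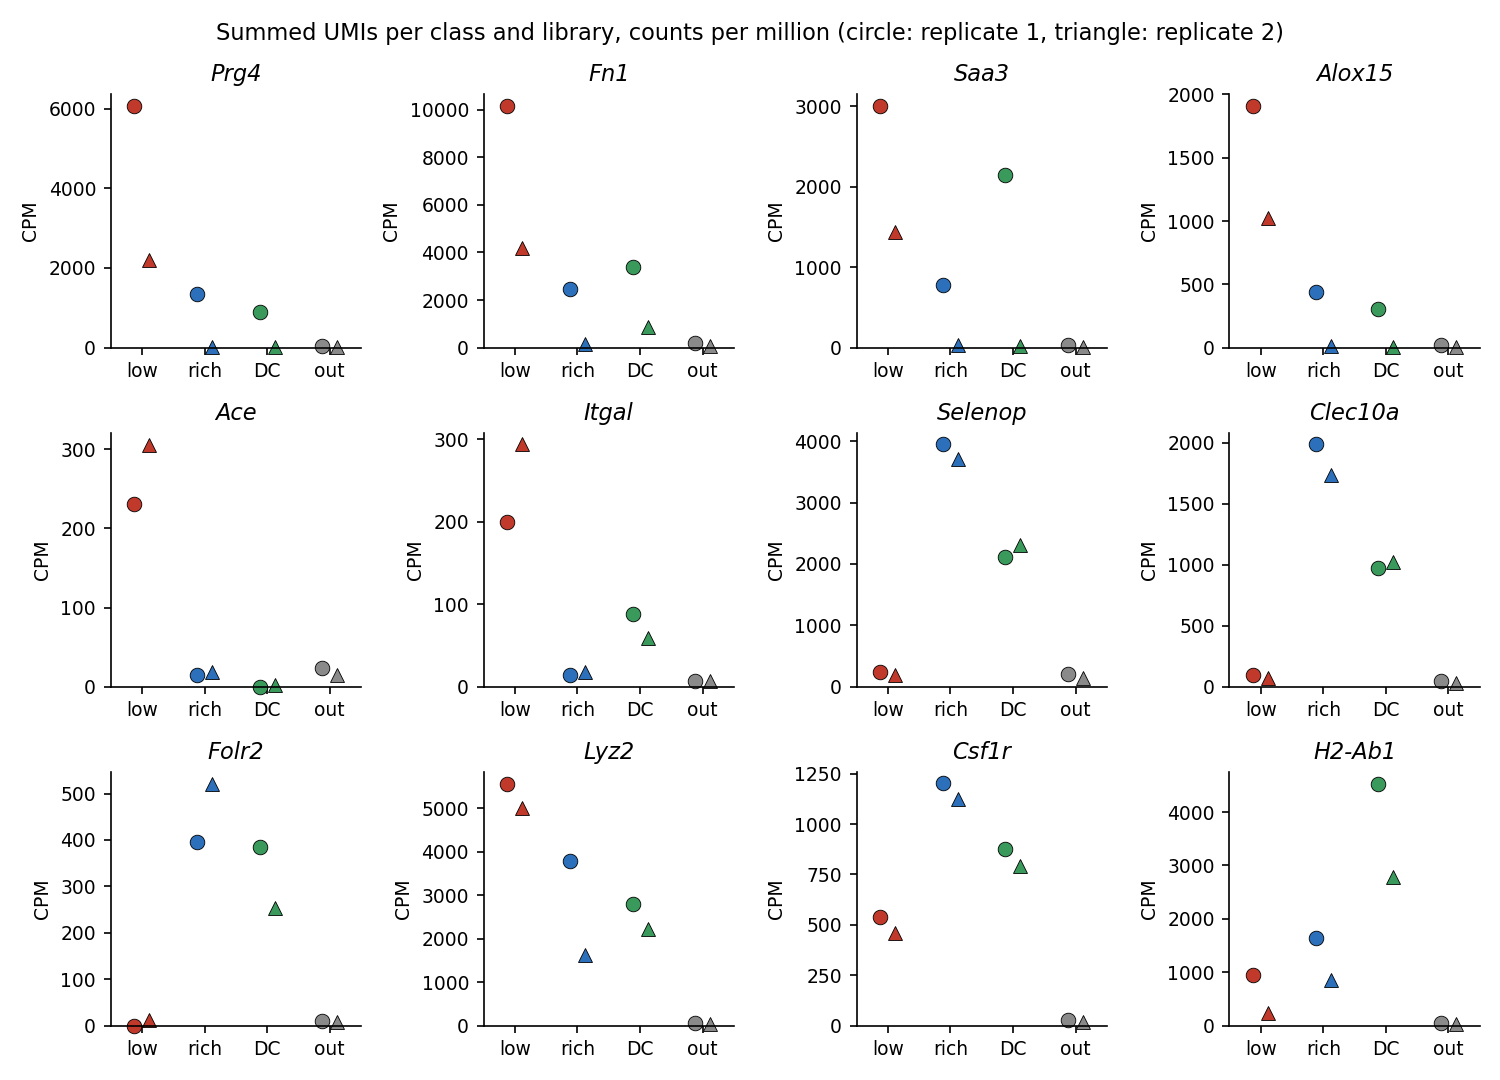
CPM of 12 genes in each class, circles for replicate 1 and triangles for replicate 2, with low for Mrc1-low, rich for Mrc1-rich, DC for dendritic or monocyte-like macrophages and out for nuclei outside the gate. Prg4, Fn1, Saa3, Alox15, Ace and Itgal are highest in Mrc1-low macrophages in each library, while Selenop, Clec10a and Folr2 are highest in Mrc1-rich macrophages.

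General macrophage genes did not move one way. Of 19 tested, the lysosomal membrane gene Laptm5 (1866 and 1118 against 608 and 387 CPM, adjusted p = 0.00013) was called higher, and so was Lyz2 (5566 and 5012 against 3788 and 1631) at an adjusted p of 0.04996, a call that some alternatives lose. Called lower were Csf1r (540 and 459 against 1201 and 1122 CPM, adjusted p = 0.00299), the inhibitory Fc receptor gene Fcgr2b (185 and 212 against 770 and 617, 8e-05), C1qa (1064 and 659 against 2007 and 1536, 0.0119), Zeb2 and Mertk. Ptprc stood at 632 and 882 against 466 and 560 CPM (adjusted p = 0.407). Apoe, abundant in both classes, stood at 9668 and 6259 against 13151 and 6966 CPM (adjusted p = 0.652).

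Several class II antigen presentation genes were lower. The genes H2-Eb1, Cd74, H2-Aa, H2-Ab1 and their activator gene Ciita were the 5 called of 14 tested in the list, with a list median of -0.60. The median was -1.46 with members at 0 resident and 0 Flt3 group UMIs and Mrc1-rich macrophages from 4 resident UMIs, and -1.40 with a macrophage sum of 5 or more. In the latter fit replicate 1 kept 19 members, too few to enter, so that median rests on the members of replicate 2 alone. H2-Ab1 stood at 941 and 235 CPM in Mrc1-low and at 1639 and 862 in Mrc1-rich macrophages (log2 fold -1.29 ± 0.34, adjusted p = 0.0107). The Mrc1-low value of replicate 1 lies above the Mrc1-rich value of replicate 2, so the groups overlap, and the fall is seen within each library. H2-Ab1 was found in 14 and 5 members, with 16 of 61 and 13 of 20 UMIs from 1 nucleus each. The median member held 0 class II UMIs in each library. In replicate 1 the highest sums were 79, 63, 47 and 29, and the nuclei at 79, 63 and 29 held 1 resident or Flt3 group UMI. The class II levels of the members thus rest on few nuclei. The class II genes H2-DMa, H2-DMb1 and H2-DMb2 and the class I genes B2m, H2-K1 and H2-D1 did not pass in edgeR, in which 2 genes of the list were higher at an unadjusted p under 0.05. DESeq2 called 2 genes of the list higher. Without the library as a block, 0 of the 14 antigen presentation and 0 of the 19 macrophage identity genes were called; with it, 6 and 8 were lower at an unadjusted p under 0.05, and DESeq2 called 4 and 4 lower.

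In the remaining lists single genes were called, to be read beside 2.57% higher and 3.65% lower over all genes. Of 16 phagocytosis genes tested, 4 were called higher, namely the integrin genes Itgb2 (1419 and 588 against 445 and 133 CPM, adjusted p = 4e-06) and Itgav (6.25-fold), Fcgr4 and Lrp1, while the scavenger receptor gene Cd36 was lower. Of 8 complement genes, C3 (3.98-fold), C4b (2.05-fold) and Cfp (1.98-fold) were called higher, and the receptor gene C5ar1 (123 and 70.6 against 608 and 368 CPM) was among those called lower. Of 14 lipid-associated genes, Cd9 (617 and 565 against 240 and 17.98 CPM), Fabp4 and Itgax were higher and Cd63 and Ctsl lower. DESeq2 called 0 genes of this list lower, and 4 were lower in edgeR at an unadjusted p under 0.05. Fabp4, also an adipocyte gene, stood at 1758 and 2365 CPM against 1703 and 546, so its call rests on replicate 2, in which the adipocyte list was also higher (4612 against 2817 CPM). Trem2 did not pass, and Spp1 and Gpnmb fell below the filter on low counts. Of 16 transcription factor genes, Cebpb (3.52-fold) and Bhlhe40 (3.59-fold) were higher, and Runx1 (92.5 and 271 against 558 and 642 CPM) and Tcf4 were lower. The iron genes Tfrc, Slc40a1 and Cp were called lower of 7 (1 in DESeq2), the lipid genes Abca1 and Pltp lower and Lpcat2 higher of 13, the lysosomal genes Mitf and Ctsb lower of 14, the chemokine genes Ccl6 and Cxcl12 lower of 4 (1 in DESeq2), and the interferon response gene Ddx60 lower of 7. Of 6 inflammatory genes tested 0 passed in edgeR and 0 in DESeq2, and 3 were lower at an unadjusted p under 0.05. Of 2 proliferation genes 0 passed in either tool, and 1 was lower unadjusted.

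**Figure D4:**
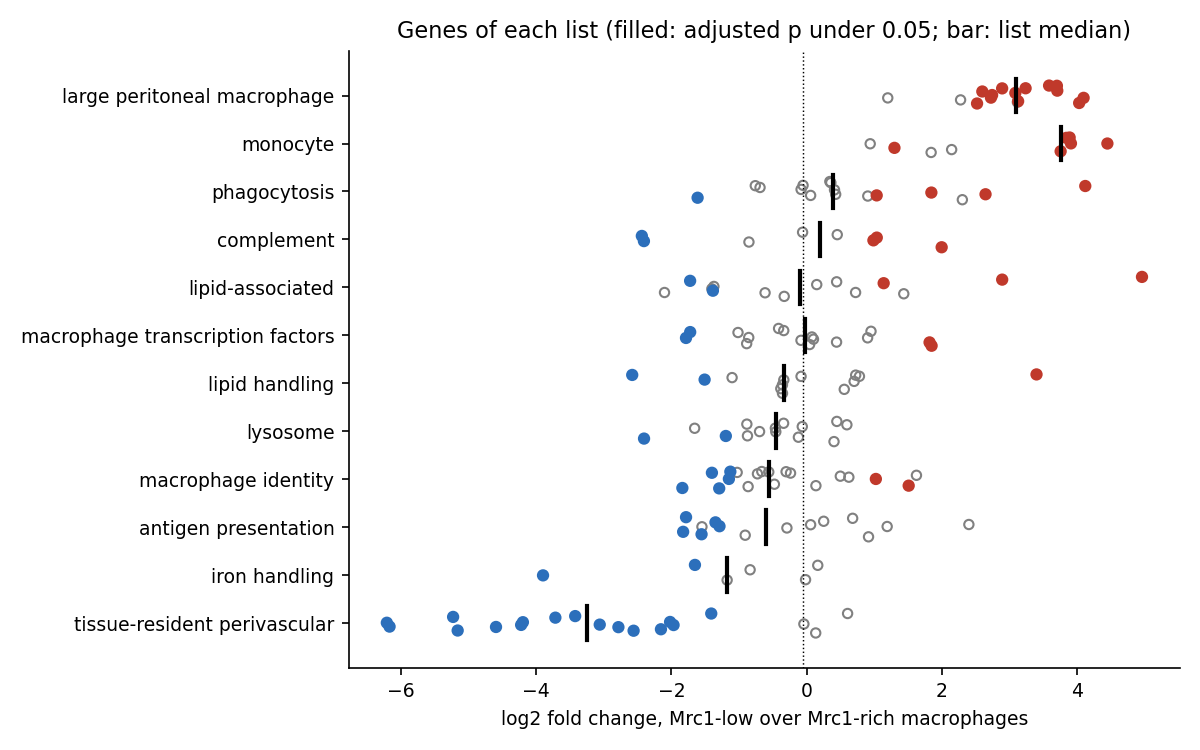
Log2 fold changes of Mrc1-low over Mrc1-rich macrophages for the tested genes of 12 lists; filled points passed an adjusted p of 0.05 (red higher, blue lower), the bar is the list median, the dotted line is the median of all genes tested, and genes without a UMI in the members are not drawn. The large peritoneal macrophage and monocyte lists lie to the right at medians of 3.10 and 3.75 (1.67 for all 16 monocyte genes without the filter on low counts), and the tissue-resident perivascular list lies to the left at -3.24.

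Against dendritic or monocyte-like macrophages, 210 genes were called higher in Mrc1-low macrophages (2.81%) and 200 lower (2.67%) of 7481. This comparison shares the Mrc1-low samples with the former one. Of 16 tested large peritoneal macrophage genes, 14 were called higher, with a median log2 fold of 3.33, and of the 9 monocyte genes that passed the filter on low counts, 5. Prg4 stood at 6075 and 2188 against 887 and 14.8 CPM (24.6-fold), Slpi at 1341 and 424 against 19.7 and 9.86 (50.7-fold), and Ltbp1 at 1295 and 976 against 108 and 39.4 (18.5-fold, adjusted p = 7.1e-12). For Slpi, 59 of 87 member UMIs in replicate 1 and 14 of 36 in replicate 2 came from 1 nucleus each. Saa3 overlapped between the classes, at 3007 and 1435 against 2148 and 22.2 CPM, and the 2148 came from 2 of 37 nuclei. Ace had 41 UMIs against 1, a ratio of 139 (95% counting interval 23.5 to 5612). Cd5l, a secreted scavenger receptor family protein, stood at 756 and 447 against 128 and 7.40 CPM (14.7-fold). Serpinb2 had 29 UMIs against 2 (ratio 49.1, 12.4 to 424) and Fcgr4 24 against 3 (27.1, 8.22 to 140). By library, Serpinb2 stood at 123 and 247 against 19.7 and 0 CPM, and Fcgr4 at 216 and 118 against 19.7 and 2.46. Both gaps were narrower in replicate 1 than the pooled ratios. Selp, Alox15, Lrg1, Lama3 and Dnah12 were the others among the 12 leading genes, with folds between 15.1 and 19.9 over both libraries. The libraries differed widely in some of them. Alox15 stood at 1912 and 1023 against 305 and 7.40 CPM, Selp at 817 and 329 against 108 and 2.46, and Lrg1 at 339 and 200 against 59.1 and 2.46, with the wider gap in replicate 2 each time. Timd4 was called higher here, at 756 and 353 against 227 and 175 CPM (adjusted p = 0.0049).

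The other class was chosen for UMIs of dendritic genes, so genes that go along with those also had to differ. Lower than in dendritic or monocyte-like macrophages were 7 of 14 antigen presentation genes. H2-Ab1 stood at 941 and 235 against 4533 and 2778 CPM (log2 fold -2.78 ± 0.35, adjusted p = 1.7e-08), and Cd74 at 1326 and 447 against 6800 and 3720. All values of the members lay below both values of the other class. Here too the members were limited to 1 resident UMI and the other class was not, so genes that go along with the resident genes had to differ. Of 20 resident genes, 15 were lower, among them Selenop (10.2-fold) and Clec10a (12.3-fold). The costimulatory receptor gene Cd226 had 1 UMI against 189, a ratio of 55.8 (95% counting interval 9.90 to 2217). Folr2 had 1 against 142 (42.0, 7.41 to 1669) and Cd209d 1 against 107 (31.6, 5.55 to 1260). Cbr2, Pla2g2d, Enpep, Gpr34, Hepacam2, the interleukin-33 receptor gene Il1rl1, Atg16l1, Spast and Chst11 had none, with bounds between 2.46 and 11.1.

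Markers of other cell types were also summed in the members. The 8 adipocyte genes outside the rule were found in the members at 3670 and 4612 CPM in sum, against 3576 and 2817 in Mrc1-rich macrophages and 28714 and 32274 outside the gate, and Ghr, Acaca and Cfd led them. Of these 8, 0 passed against Mrc1-rich macrophages in edgeR, at an unadjusted p under 0.05 or in DESeq2. The 7 mesothelial genes summed to 77.1 and 200 CPM against 70.7 and 98.2 in Mrc1-rich macrophages and 277 and 365 outside, with Bnc1 at 0, and the 7 fibro-adipogenic progenitor genes to 740 and 906 against 495 and 412 in Mrc1-rich macrophages and 1914 and 1258 outside. The progenitor genes Pi16 and Dpp4 were called higher than in Mrc1-rich macrophages. The 8 genes of T and NK cells summed to 231 and 165 CPM, against 63.6 and 122 in Mrc1-rich, 9.85 and 73.95 in dendritic or monocyte-like macrophages and 50.1 and 72.5 outside, with Cd3e, Il7r, Nkg7 and Gzma at 0. Among them Skap1 was called higher than in the dendritic or monocyte-like class (adjusted p = 0.0477) and than outside (0.00652). The 6 B cell genes summed to 77.1 and 318 CPM against 445 and 719 in Mrc1-rich macrophages and 29.3 and 41.2 outside, with Cd79a at 0. The 6 endothelial genes summed to 216 and 294 CPM against 98.9 and 148 in Mrc1-rich macrophages and 245 and 209 outside, with Kdr at 0. For the 6 mural genes the sums were 154 and 82.3 CPM against 28.3 and 94.0, and 136 and 84.3 outside, with Tagln at 0. For the 5 mast cell genes they were 92.5 and 70.6 against 28.3 and 38.7, and 85.6 and 86.5 outside, with Cpa3 and Ms4a2 at 0. In the endothelial, mural and mast cell lists the members thus stood near the level outside the gate. Of the 6 neutrophil genes only Csf3r and Mmp9 had UMIs, with 0 for S100a8, S100a9, Cxcr2 and Retnlg. Of 5 eosinophil genes, Ccr3, Siglecf and Epx were at 0 and Il5ra had 2 UMIs, so that Alox15 made up nearly all of that sum. The 8 dendritic genes summed to 524 and 294 CPM against 1449 and 976 in the dendritic or monocyte-like class, with Siglech at 0. The part of RNA from other nuclei in these levels was not tested.

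At the thresholds of the rule, nuclei with 2 resident UMIs, just outside, numbered 4 and 7, and their peritoneal list stood at 20283 and 677 CPM. Members with 1 resident UMI had 25892 and 12760 CPM, and those with 0 had 28184 and 12909. Nuclei with a macrophage sum of 2, just outside, numbered 14 and 47, and their peritoneal list stood at 689 and 626 CPM and Lyz2 at 275 and 168. Members with a sum of 3 had 5851 and 2217 CPM of the list and 1033 and 345 of Lyz2. Members with a sum of 4 had 12622 and 9187 CPM of the list. Of nuclei with a macrophage sum of 2, 2 of 14 and 3 of 47 held 3 or more list UMIs without thinning. At a sum of 3 these were 2 of 8 and 3 of 14, and at a sum of 4, 3 of 8 and 1 of 3. In replicate 1, 1 nucleus held 65 of the 68 list UMIs at a sum of 3. Among nuclei with 2 resident UMIs, 1 of 4 and 1 of 7 held 3 or more. The threshold thus passes a range where the summed peritoneal list, held by few nuclei, and Lyz2 thin out. Ptprc did not follow them, at 321 and 458 CPM at a sum of 2 against 344 and 98.5 at a sum of 3. The monocyte list stood at 1010 and 963 CPM against 3786 and 985.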

How the data were processed

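Nuclei of gonadal fat of 2 mice were captured with a Singleron GEXSCOPE kit, 1 library each. The authors aligned reads to GRCm39 with CeleScope and deposited counts, as whole UMIs of 56980 genes, unnormalized. Raw UMIs of kept nuclei totalled 8466237 (replicate 1) and 48068273 (replicate 2). The members and lists were chosen with earlier results of these data known.

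UMIs were summed per class and library (at least 20 nuclei) and fitted with edgeR 4.0.16 (filterByExpr, TMM, quasi-likelihood test), with all 4 classes in 1 fit. The library entered as a block because its classes come from 1 animal. Benjamini-Hochberg adjustment ran over the 7481 genes outside the rule. Each p rests on the spread left after class and library were fitted, estimated from all 4 classes in 2 libraries. SEs were derived from the F statistic. The procedure was also run on simulated counts, whose outcome is not given here, and no result rests on that run. No doublets were removed, and an alternative removed the highest 6% of Scrublet scores (scanpy 1.11.5). DESeq2 1.42.0 was another alternative. Nuclei were thinned to 1000 UMIs with seed 1.

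Named were the rule's genes, the 12 called genes of largest fitted log2 fold each way in the first 2 comparisons (at least 20 UMIs in the higher class, 5 per library), where the fitted fold of a gene at 0 UMIs depends on the prior count and ranks no size, and examples from 16 function and 11 cell type lists. Gene positions are from GENCODE by Ensembl identifier. Python 3.11.15 and R 4.3.3 were used. Barcode and gene lists gave names only, and the deposited totals per barcode and downsampling tables were not used. Of the members, 1 shares its barcode with another kept nucleus of the other library. A gene with 0 UMIs in the members was set at a floor of 3 UMIs over the class, and intervals cover counting error only. The versions of the aligner and annotation are not given in the sources used here. Some genes of the lists are not reported here.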

Additional observations from a re-analysis of the deposited data

How the results depend on the processing

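The counts of called genes moved with the settings. Numbers are higher and lower calls. Against Mrc1-rich macrophages there were 38 and 70 without the replicate block, 94 and 179 with an adipocyte sum of at most 2, 76 higher without the filter on low counts, and fewer lower calls with DESeq2 (159), after thinning the gate to 1000 UMIs (162), with a macrophage sum of 5 or more (153) and with macrophages of at most 3000 UMIs (177). Against dendritic or monocyte-like macrophages there were 18 and 23 without the block, 128 lower with DESeq2, 71 higher without the filter, 23 and 21 after thinning, 108 and 91 with a macrophage sum of 5, 33 and 91 with an adipocyte sum of at most 2, and 111 and 107 with at most 3000 UMIs. Against nuclei outside the gate there were 609 lower without the block, 629 lower with DESeq2, 540 and 1795 without the filter, 553 and 671 with a macrophage sum of 5, and 611 higher with an adipocyte sum of at most 2. The cause of these moves was not tested, except that without the filter more genes entered the adjustment, and that thinning and the adipocyte limit left the dendritic class of replicate 1 with 16 and 17 nuclei and the macrophage sum left 19 members in replicate 1, too few to enter the fit. The lone library left in such a class is assumed to vary like the others. No fit could be made at a mitochondrial limit of 5%, where replicate 1 kept 5 members, and the comparisons have no test without a replicate. The share of macrophages was 11.97% at that limit and ranged from 10.0% with 0 resident and 0 Flt3 group UMIs to 23.1% after thinning, and from 8.53% to 23.5% without replicate 1 or 2. The thinned gate kept 24 of 35 and 32 of 44 members.

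For 67 named genes the direction against Mrc1-rich macrophages held in every setting that gave a value (not computed for the other comparisons), and the most calls were lost without the block (34 genes). Lyz2 lost its call without the block (adjusted p = 0.63), without the filter (adjusted p = 0.22), with those stricter limits on both gene groups (0.12), with the adipocyte limit (0.51) and without high doublet scores (0.06). Of the large peritoneal macrophage list, 4 to 15 genes were called higher over the settings, 4 without the block, and of the monocyte list 5 to 7. Of the tissue-resident perivascular list 13 were called lower without the block and 16 to 17 elsewhere. DESeq2 moved the median log2 fold of all genes from -0.05 to 0.03. At this depth 0 UMIs in the members allow a level of up to 20.02 CPM over both libraries.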
